A study of Saccharomyces cerevisiae with 4 samples.

Results

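The hexose transporter genes HXT1 to HXT7 and the glucose sensor genes SNF3 and RGT2 were compared between untreated yeast and yeast exposed to thiolutin. These 9 genes, 7 transporters and 2 sensors, were selected by name from the 6209 genes of the count table, and all 9 passed the filter on low counts. Both groups were cultures of Saccharomyces cerevisiae BY4741, a haploid laboratory strain of genotype MATa his3 leu2 met15 ura3, grown in the rich glucose medium YPD. The untreated group received no drug, and the thiolutin group received 3 µg/mL of thiolutin, an antibiotic of the dithiolopyrrolone class that acts on RNA synthesis, for 3 h. Poly(A)-selected RNA was sequenced from both ends, and 2 libraries per group were analysed here. The design text of the submitters gives 3 replicates per condition, whereas the methods describe 2 independent experiments. The labels place the cells in exponential growth, and the methods take them from overnight cultures.

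Glucose enters the yeast cell by facilitated diffusion through the Hxt proteins of the plasma membrane, which differ in affinity. Hxt1 and Hxt3 have low affinity and serve growth on abundant glucose, Hxt2, Hxt4, Hxt6 and Hxt7 have high or intermediate affinity, and Hxt5 is linked to slow growth. Snf3 and Rgt2 resemble the transporters but act as receptors, Snf3 for low and Rgt2 for high glucose. Their signal, passed on by the casein kinases Yck1 and Yck2, leads to the breakdown of Mth1 and Std1 through the ubiquitin ligase SCF-Grr1, and the repressor Rgt1 with its corepressor Cyc8-Tup1 is then released from HXT promoters. A second branch, with the hexokinase Hxk2, the kinase Snf1 and the repressor Mig1, turns off genes for high-affinity uptake and for other carbon sources when glucose is abundant.

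HXT6 and HXT7 are close copies, so their sequences bear on every value given for them. Their coding sequences of 1713 bases in the R64 genome of RefSeq were 99.8% identical, with 3 differences, T1632C, G1666A and T1677C, which give the HXT6 base first, the position counted from the A of the start codon, and the HXT7 base. The longest stretch without a difference was 1631 bases, and 95.1% of all 50-base windows of HXT6 were also present in HXT7. The stretch with all 3 differences is printed in the direction of the genes, with the differing bases in capitals. It lies on the minus strand at chrIV:1159644-1159763 in HXT6 and at chrIV:1154252-1154371 in HXT7.
HXT6: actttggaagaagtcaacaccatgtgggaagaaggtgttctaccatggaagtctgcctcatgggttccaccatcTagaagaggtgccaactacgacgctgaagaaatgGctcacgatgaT
HXT7: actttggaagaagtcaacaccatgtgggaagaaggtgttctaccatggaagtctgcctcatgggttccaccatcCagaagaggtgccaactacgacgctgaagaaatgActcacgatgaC

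The other pairs were less alike. HXT3 shared 13.1% of its 50-base windows with HXT6 and with HXT7, where the longest identical run was 149 bases, while HXT1 shared 4.21% of its windows with HXT5 and 0.781% with HXT4, and HXT3 shared 1.75% with HXT4. No other pair of the 9 genes shared a window. The coding sequences of SNF3 and RGT2 were 66.7% identical, and those of HXT1 and HXT3 were 82.5% identical. How the authors treated reads that match several genes is not given in the sources used here, so the separate values of HXT6 and HXT7 are uncertain and their sum is given as well.

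Promoters are shown because Rgt1 and Mig1 are repressors through which glucose acts on several HXT genes. The 1000 bases before each start codon were searched on both strands for the Rgt1 word CGGANNA and for the Mig1 words CCGGGG or CTGGGG, with GCGGGG or GTGGGG as well, and no match of one overlapped a match of another in the 9 genes. For each of 5 genes, 150 bases are printed in the direction of the gene, with the Rgt1 words of either strand in capitals. The R64 positions are chrVIII:293018-293167 for HXT1, chrIV:1165055-1165204 for HXT3, chrXIII:287539-287688 for HXT2, chrVIII:289101-289250 for HXT4 and chrIV:1156547-1156696 for HXT7, on the minus strand except for HXT2.
HXT1: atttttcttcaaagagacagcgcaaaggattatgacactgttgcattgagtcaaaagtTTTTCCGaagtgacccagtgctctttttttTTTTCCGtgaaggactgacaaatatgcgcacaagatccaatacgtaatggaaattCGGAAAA
HXT3: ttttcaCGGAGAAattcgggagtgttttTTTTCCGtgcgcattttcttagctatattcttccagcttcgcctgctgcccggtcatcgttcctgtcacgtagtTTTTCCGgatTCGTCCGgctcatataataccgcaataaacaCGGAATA
HXT2: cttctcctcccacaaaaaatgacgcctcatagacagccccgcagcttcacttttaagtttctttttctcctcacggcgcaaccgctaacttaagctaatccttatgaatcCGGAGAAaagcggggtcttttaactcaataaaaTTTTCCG
HXT4: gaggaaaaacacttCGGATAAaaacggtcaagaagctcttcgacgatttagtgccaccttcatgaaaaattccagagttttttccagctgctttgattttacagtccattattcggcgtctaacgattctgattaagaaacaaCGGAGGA
HXT7: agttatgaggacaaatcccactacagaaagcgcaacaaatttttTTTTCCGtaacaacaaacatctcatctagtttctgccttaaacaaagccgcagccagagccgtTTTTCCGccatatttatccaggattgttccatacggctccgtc

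The window of HXT1 held 8 Rgt1 words, of which 3 are in the stretch shown, and that of HXT3 held 9, of which 5 are shown. Of 6015 promoters of the same length, 66.4% held at least 1 Rgt1 word, 11.1% at least 3, and 2 promoters, those of HXT1 and HXT3, held 8 or more. HXT5 had 4 words, HXT2, HXT4 and HXT6 had 3 each and HXT7 had 2, while no word was found in the windows of SNF3 and RGT2. Mig1 words numbered 4 in HXT2 and in HXT4, 3 in HXT6, 2 each in HXT1, HXT3, HXT7 and SNF3, 1 in HXT5 and 0 in RGT2. At least 1 Mig1 word was present in 41.8% of all promoters, at least 2 in 12.0% and at least 4 in 0.848%. These matches describe the sequence only, since binding was not measured. Some windows reach into the next annotated gene. It lies 330 bases before HXT4 (AHT1), 550 before SNF3 (SEC31), 685 before HXT6 (YDR344C) and 937 before HXT5 (PAL2). Beyond these distances lie the Rgt1 words of HXT4 at 650 and 425 bases and its Mig1 words at 498 and 466. The same holds for the Rgt1 words of HXT6 at 911 and 904 bases and for part of the stretch printed for HXT4.

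**Figure D1:**
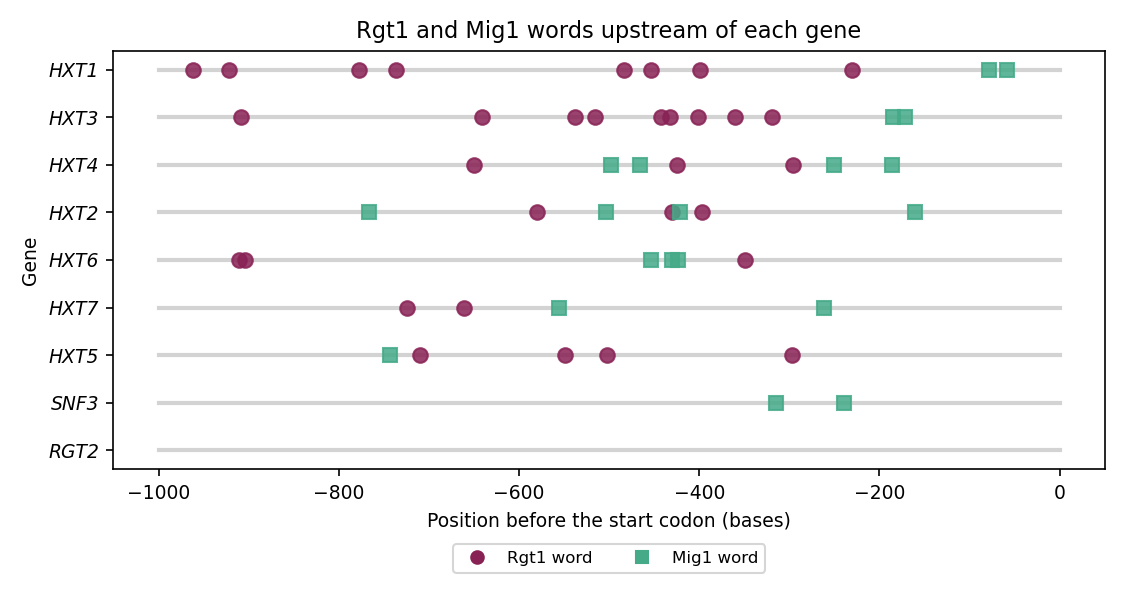
Positions of Rgt1 words (circles) and Mig1 words (squares) in the 1000 bases before the start codon of each gene, with the distance in bases on the horizontal axis. HXT1 and HXT3 carry 8 and 9 Rgt1 words, the other transporter genes 2 to 4, and the sensor genes none.

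Reads counted in genes totalled 30205335 and 29962621 without and 17038991 and 21440741 with thiolutin. Counts were scaled by TMM (trimmed mean of M-values, which leaves out extreme genes) and are given as normalized counts, and differences are log2 fold changes of thiolutin against untreated. A change was called where the p of the quasi-likelihood test of edgeR, adjusted by Benjamini-Hochberg over 5937 genes, was under 0.05. In this test 1850 genes were higher and 1924 lower, 63.6% of those tested, and the median log2 fold change was -0.04. With total counts in place of TMM the median was -0.63, with 965 genes higher and 3605 lower. Log2 values of all genes correlated at 0.987 between the untreated libraries and at 0.997 between the thiolutin libraries. The labelled mating type is a, and the 6 genes specific to a cells had from 501 (ASG7) to 15589 (STE2) normalized counts in the untreated libraries. Of the 4 genes specific to alpha cells, SAG1 had 918 and 924, within that range, while MF(ALPHA)1, MF(ALPHA)2 and STE3 had 5.35 to 114. Of the marker genes of the genotype, HIS3 had 2133 and 1455 normalized counts in the untreated libraries. LEU2, URA3 and MET17 (MET15) had no entry in the count table. GAL1 and GAL4, which the genotype does not name, had no entry either, so a missing entry does not show a deletion. How the HIS3 reads lie along the gene cannot be seen from counts per gene. The labels call the libraries biological replicates, and the p-values measure the spread between these libraries, which share 1 strain. In bulk RNA, fewer cells with a transcript and less transcript per cell cannot be told apart. The counts are steady-state levels relative to the other reads of a library, so the amount of RNA per cell is not known. The paper states that thiolutin also interferes with mRNA decay, and these counts do not separate synthesis from decay.

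The low-affinity transporters and HXT2 were higher with thiolutin, and HXT4, HXT6, HXT7 and SNF3 were lower. Of the 9 genes, 3 rose, 4 fell and the other 2 missed the threshold. Among all genes tested, 31.2% were called higher and 32.4% lower. Where the log2 fold change also had to reach 1 in size, which 26% of all genes did, 3 rose, against 15.7% of all genes, and 3 fell, against 10.3%. At an adjusted p under 0.01, which 44.2% of all genes passed, 3 were higher and 3 lower. Values of 8 of the 9 genes did not overlap between the groups, which was also the case for 84.6% of all genes. The median log2 fold change of the 9 genes was 0.02. Without thiolutin replicate 1 or without thiolutin replicate 2 the lower genes numbered 2, and without untreated replicate 1 the higher genes numbered 5.

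**Figure D2:**
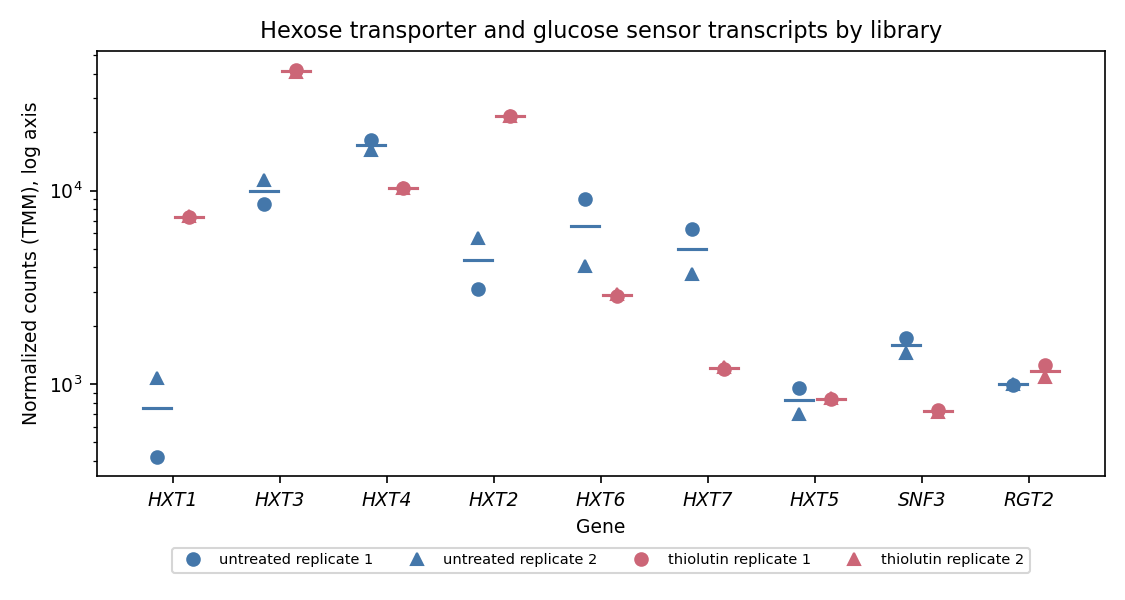
TMM-normalized counts (log axis) of the 9 genes in each library, with circles for replicate 1, triangles for replicate 2 and bars for the mean of each pair. HXT1, HXT3 and HXT2 lie higher in both thiolutin libraries, HXT4, HXT6, HXT7 and SNF3 lie lower in both, and HXT5 overlaps between the groups.

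HXT1 (YHR094C, 1 coding exon, chrVIII:290913-292625, minus strand) encodes a low-affinity transporter induced by abundant glucose. It had 418 and 1076 normalized counts in untreated replicates 1 and 2 and 7264 and 7367 in thiolutin replicates 1 and 2. Both thiolutin libraries were far above both untreated libraries, which differed from each other more than the thiolutin libraries did. The mean went from 747 ± 465 to 7315 ± 72.8 (SD, n = 2 each), and HXT1 rose 9.79-fold, a log2 fold change of 3.29 with a standard error of 0.46 (edgeR quasi-likelihood test, adjusted p = 0.00273). The 95% interval of this log2 fold change ran from 2.11 to 4.47. The log2 fold change of HXT1 was 2.77 without untreated replicate 1 and 4.13 without untreated replicate 2. In these fits only the thiolutin pair gives the spread.

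HXT3 (YDR345C, chrIV:1162957-1164660, minus strand), the other low-affinity transporter, is transcribed over a wide range of glucose. Its normalized counts were 8515 and 11336 without and 42005 and 41255 with thiolutin, so that the groups were well apart. HXT3 rose 4.19-fold (log2 2.07, standard error 0.16, edgeR quasi-likelihood test, adjusted p = 0.000530), with a 95% interval from 1.65 to 2.49. Without 1 library at a time the log2 fold change of HXT3 was between 1.89 and 2.29.

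HXT2 (YMR011W, chrXIII:288079-289704, plus strand) encodes a transporter of high affinity whose gene is induced by low glucose and repressed by high glucose. Its normalized counts were 3088 and 5651 without and 24313 and 24257 with thiolutin, again without overlap. HXT2 rose 5.56-fold (log2 2.47, standard error 0.30, edgeR quasi-likelihood test, adjusted p = 0.00176), with a 95% interval from 1.70 to 3.24. The intervals of HXT1, HXT2 and HXT3 overlapped, and their differences in fold change were not tested.

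HXT4 (YHR092C, chrVIII:287081-288811, minus strand) also encodes a transporter of higher affinity and lies on the same chromosome arm as HXT1 and HXT5. It had 18216 and 16240 normalized counts in the untreated libraries, against 10327 and 10270 in the thiolutin libraries. Here the untreated libraries were close together and both above the thiolutin pair. HXT4 fell to 0.598 of its untreated level (log2 -0.74, standard error 0.10, edgeR quasi-likelihood test, adjusted p = 0.00265), with a 95% interval from -1.01 to -0.48. The call was lost without thiolutin replicate 1 (log2 -0.75, adjusted p = 0.0698) and without thiolutin replicate 2 (log2 -0.74, adjusted p = 0.0722), where 34.5% and 35.3% of all genes were still called.

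HXT6 (YDR343C, chrIV:1159608-1161320, minus strand) and HXT7 (YDR342C, chrIV:1154216-1155928, minus strand) encode high-affinity transporters. HXT6 had 9081 and 4091 normalized counts in untreated replicates 1 and 2 and 2841 and 2900 in the thiolutin libraries. HXT7 had 6310 and 3681 in the untreated pair and 1198 and 1219 in the thiolutin pair. For both genes untreated replicate 1 was the highest library and the groups did not overlap.

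HXT6 fell to 0.436 of its untreated level (log2 -1.20, standard error 0.37, edgeR quasi-likelihood test, adjusted p = 0.0387), with a 95% interval from -2.16 to -0.24. This value depended on single libraries. It was -0.50 without untreated replicate 1 and -1.66 without untreated replicate 2, where only the thiolutin pair gives the spread. The call was lost without thiolutin replicate 1 (-1.19) or 2 (-1.21). HXT7 fell to 0.242 of its untreated level (log2 -2.05, standard error 0.27, edgeR quasi-likelihood test, adjusted p = 0.00229), with a 95% interval from -2.74 to -1.35. Without 1 library at a time the log2 fold change of HXT7 was between -2.38 and -1.60.

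Added into 1 row, HXT6 and HXT7 had 15394 and 7773 normalized counts without and 4039 and 4117 with thiolutin. The sum fell to 0.352 of its untreated level (log2 -1.51, standard error 0.33, edgeR quasi-likelihood test, adjusted p = 0.0121), with a 95% interval from -2.34 to -0.67. The adjusted p of the sum was 0.0524 without thiolutin replicate 1. The ratio of HXT6 to HXT7 reads was 1.44 and 1.11 in the untreated libraries, against 2.37 and 2.38 in the thiolutin libraries, so the reads assigned to HXT7 dropped by more than those assigned to HXT6. The difference between the fold changes of these near-identical genes was not tested.

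HXT5 (YHR096C, chrVIII:294669-296447, minus strand), whose transporter has moderate affinity, was the only gene of HXT1 to HXT7 whose groups overlapped. It had 955 and 701 normalized counts in the untreated pair and 837 and 840 in the thiolutin pair, which lay between the untreated values. The log2 fold change was 0.02 with a standard error of 0.17 and a 95% interval from -0.42 to 0.45 (edgeR quasi-likelihood test, adjusted p = 0.933). It depended on the untreated library kept, at 0.27 without untreated replicate 1 (adjusted p = 0.00426) and -0.18 without untreated replicate 2 (adjusted p = 0.0323). In these fits only the thiolutin pair gives the spread, and 83.3% and 84.3% of all genes were called.

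Of the sensors, SNF3 fell and RGT2 did not pass the test. SNF3 (YDL194W, chrIV:111580-114234, plus strand), the low-glucose sensor, had 1727 and 1440 normalized counts without and 730 and 712 with thiolutin. The groups did not overlap, and SNF3 fell to 0.455 of its untreated level (log2 -1.14, standard error 0.12, edgeR quasi-likelihood test, adjusted p = 0.00121), with a 95% interval from -1.45 to -0.82. RGT2 (YDL138W, chrIV:213351-215642, plus strand), the high-glucose sensor, had 987 and 1002 normalized counts without and 1248 and 1081 with thiolutin. The thiolutin libraries of RGT2 were both above the untreated pair but did not pass the test (log2 0.23, standard error 0.11, adjusted p = 0.121), with a 95% interval from -0.05 to 0.50. The call of RGT2 also turned on single libraries, with an adjusted p of 0.00683 without untreated replicate 1 (log2 0.22) and 0.00322 without untreated replicate 2 (log2 0.24). The ratio of SNF3 to RGT2 reads, which no scaling changes, was 1.75 and 1.44 in the untreated libraries, against 0.585 and 0.659 in the thiolutin libraries.

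The scale moved all of these values. With total counts in place of TMM the log2 fold changes were 2.70 for HXT1, 1.48 for HXT3, 1.88 for HXT2, -1.33 for HXT4, -1.78 for HXT6, -2.64 for HXT7 and -1.72 for SNF3, in the same direction as above and called. On that scale HXT5 (-0.57, adjusted p = 0.0240) and RGT2 (-0.36, adjusted p = 0.0262) were called lower, against the sign of their TMM values, so that 3 genes were higher and 6 lower. The median of all genes on that scale was -0.63. HXT5 lay close to the median of all genes under either scaling, and RGT2 somewhat above it.

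**Figure D3:**
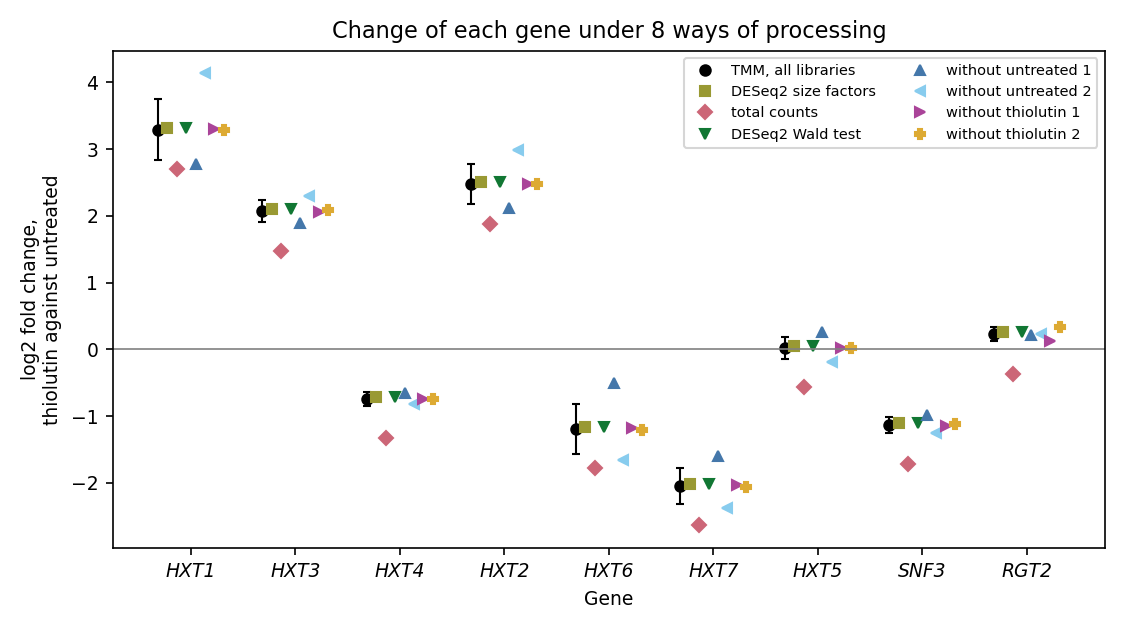
Log2 fold change of thiolutin against untreated for each gene under 8 ways of processing, with the standard error on the main value. HXT1, HXT2 and HXT3 stay above 0 and HXT4, HXT6, HXT7 and SNF3 below 0 in all of them, while HXT5 and RGT2 change sign with total counts as the scale and HXT5 also without untreated replicate 2.

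The reads of HXT1 to HXT7 together made up 0.231% and 0.214% of all counts in the untreated pair and 0.293% and 0.292% in the thiolutin pair. As normalized counts these sums were 46583 and 42776 without and 88783 and 88107 with thiolutin. Both measures were higher in each thiolutin library than in each untreated library.

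In untreated cells HXT4 supplied the largest part of these reads, with 39.1% and 38.0% of the HXT1 to HXT7 reads, and in thiolutin-treated cells its share was 11.6% and 11.7%. HXT3 had 18.3% and 26.5% without and 47.3% and 46.8% with thiolutin, the largest share of any transporter in the treated libraries. HXT2 had 6.63% and 13.2% without and 27.4% and 27.5% with thiolutin. These shares do not depend on how the libraries are scaled.

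HXT1 and HXT3, the low-affinity pair, together took up 19.2% and 29.0% of the reads without and 55.5% and 55.2% with thiolutin. Their mean share was 24.1% ± 6.96 without and 55.3% ± 0.218 with thiolutin (SD, n = 2 each), a difference of 31.2 percentage points. The share of HXT6 and HXT7, the near-identical pair, was 33.0% and 18.2% without and 4.55% and 4.67% with thiolutin. With 2 libraries against 2 an exact permutation test has too few splits to pass a threshold, so these shares are a description. HXT1, which rose the most, and HXT7, which fell the most, changed places, with 0.0662 and 0.292 reads of HXT1 per read of HXT7 in the untreated libraries, against 6.06 and 6.05 in the thiolutin libraries.

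**Figure D4:**
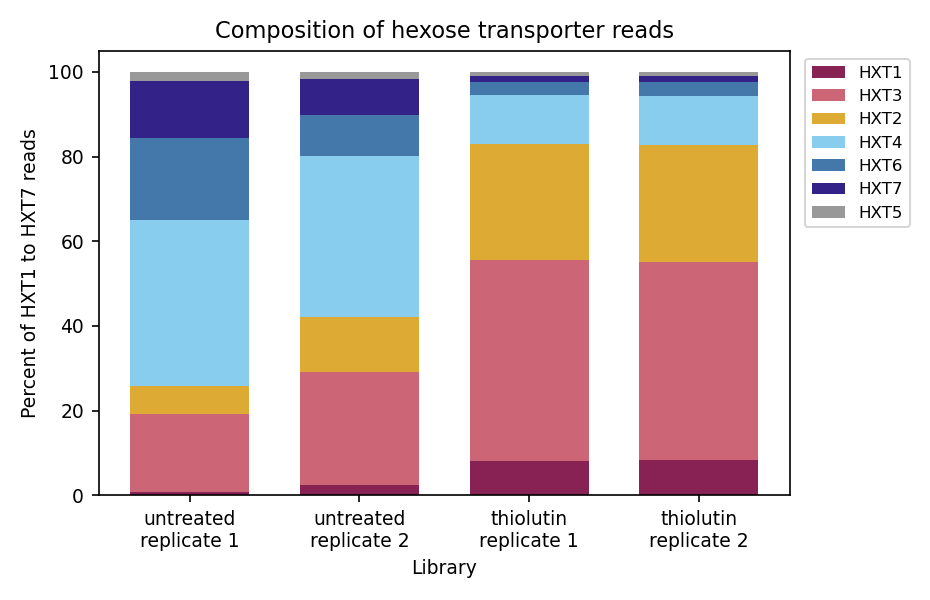
Percent of the reads of HXT1 to HXT7 that fell in each gene, stacked to 100 for each library. HXT3 and HXT2 take up 47.3% and 27.4% in thiolutin replicate 1, where HXT4 was the largest in untreated replicate 1 at 39.1%.

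Levels of different genes were compared as counts per kilobase of coding length, scaled by the total counts of the library (RPKM). In untreated cells the order was HXT4 at 495 ± 37.2, HXT3 at 290 ± 59.9, HXT6 at 191 ± 101, HXT7 at 145 ± 53.1 and HXT2 at 134 ± 56.2 (SD, n = 2). Each of the last 4 overlapped with its neighbour in the order. The lowest levels were those of SNF3 at 29.6, HXT5 at 23.1, HXT1 at 21.7 and RGT2 at 21.6. The range of HXT1, from 12.1 in untreated replicate 1 to 31.4 in untreated replicate 2, overlapped those of the other 3 genes, so its place in the order was not resolved.

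With thiolutin the order of RPKM levels was HXT3 at 808 ± 7.33, HXT2 at 494, HXT4 at 197, HXT1 at 141, HXT6 at 55.4, HXT7 at 23.3, RGT2 at 16.8, HXT5 at 15.6 and SNF3 at 8.98. Only RGT2 and HXT5 overlapped with each other. HXT4 went from the first to the third place and SNF3 from above RGT2 to below it, while HXT1, whose place among the lowest genes was not resolved without thiolutin, was the fourth.

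The untreated libraries differed from each other in these genes. The coefficient of variation within the untreated pair was 62.3% for HXT1, 53.6% for HXT6, 41.5% for HXT2 and 37.2% for HXT7, and within the thiolutin pair it was at most 1.74% for all members but RGT2, at 10.1%. The difference between the untreated libraries was larger for HXT1 than for 99.0% of all genes, for HXT6 than for 98.4%, for HXT2 than for 96.4% and for HXT7 than for 95.1%. For all 7 called members, untreated replicate 2 lay on the thiolutin side of untreated replicate 1, with log2 values of replicate 2 over replicate 1 of 1.36 for HXT1 and -1.15 for HXT6. In a list of genes that glucose represses, 16 of 16 were higher in untreated replicate 1 than in replicate 2, with a median log2 of 0.57, whereas 51.1% of all genes were. The part of this difference between cultures in the changes above was not tested. With either untreated library left out, the log2 fold changes of these 7 genes kept their direction. That of HXT6 was -0.50 without untreated replicate 1 and -1.66 without untreated replicate 2. In these fits only the thiolutin pair gives the spread, so they cannot show how much the difference between the untreated cultures matters.

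The neighbours of the 9 genes gave values of their own. AHT1, between HXT4 and HXT1, had a log2 fold change of -0.09, and MSR1, on the other side of HXT4, of 0.09. YDR344C, between HXT6 and HXT3, had 0.12, SVF1, beyond HXT3, -0.21, and YDR341C, beyond HXT7, -0.27. ANY1, beside HXT2, had -0.05, NUS1, beside SNF3, -0.03, and SCM3 and ARF2, on either side of RGT2, had 0.25 and 0.40, and none of these 9 neighbours was called. HXT1 and HXT5 stand 2043 bp apart and HXT6 and HXT7 3679 bp apart, and within the first pair HXT1 rose while HXT5 did not pass the test. PAL2, next to HXT5, fell by 0.70 on the log2 scale (adjusted p = 0.00702). SEC31, a coat protein gene that ends 550 bp before SNF3 on the same strand, fell by 1.32 on the log2 scale (adjusted p = 0.00137). Whether reads were counted by strand is not given in the sources used here.

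Over the 4 libraries, the genes most like HXT1 were MET28 (distance 0.47), DLD3 (0.55) and ERO1 (0.57), by the Euclidean distance of centred log2 CPM, counts scaled to a common library total, among 5486 protein-coding genes. MET28, a regulator of sulfur metabolism, had 295 and 483 normalized counts without and 3964 and 3970 with thiolutin. DLD3, an enzyme of the D-lactate dehydrogenase family, rose by a log2 fold change of 2.99 and ERO1, an oxidase of the endoplasmic reticulum, by 3.48. The genes most like HXT7 were YPS5 (distance 0.07, log2 fold change -2.11), REC114 (distance 0.08, -2.11) and UIP4 (distance 0.08, -1.98). The profile of HXT1 had no gene as near to it as HXT7 had.

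Of the 10 genes of the glucose induction pathway, 0 were called higher and 6 lower while 4 missed the threshold, at a median log2 fold change of -0.33. Of all genes tested, 31.2% were called higher and 32.4% lower, with a median of -0.04, and the same holds as the background for the lists that follow. RGT1, the repressor of HXT genes, had the largest decrease (log2 -0.88, standard error 0.10, edgeR quasi-likelihood test, adjusted p = 0.00160). TUP1 (-0.74, adjusted p = 0.00344) and CYC8 (-0.39, adjusted p = 0.0219), which encode the corepressor, the kinase gene YCK1 (-0.40, adjusted p = 0.0131), GRR1 of the ubiquitin ligase (-0.38, adjusted p = 0.0309) and MTH1 (-0.29, adjusted p = 0.0448) were also lower. The other genes did not pass, with log2 fold changes of -0.23 for STD1, the paralog of MTH1, 0.16 for YCK2, and 0.42 for SKP1 and -0.02 for CDC53, both subunits of the ubiquitin ligase. SKP1 was the 1 gene of the pathway that was higher at an unadjusted p under 0.05 in the edgeR quasi-likelihood test, and DESeq2 called 1 gene of the pathway higher. The calls depended on the libraries used, with 1 of the 10 genes called lower without thiolutin replicate 1 and 1 without thiolutin replicate 2, where fewer of all genes were called too, although the log2 fold changes moved little, for example to -0.72 and -0.76 for TUP1. Of the same genes, 1 was called higher without untreated replicate 1 and 3 without untreated replicate 2. With total counts as the scale 9 were called lower, and YCK2 and SKP1 changed sign, at -0.43 and -0.16. MTH1 missed the threshold with the size factors of DESeq2 (adjusted p = 0.0594) and in DESeq2 itself (adjusted p = 0.0946).

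In the glucose repression pathway 6 of 14 genes were called higher and 6 lower, with a median log2 fold change of -0.11. MIG1, which encodes the repressor that binds promoters of glucose-repressed genes, rose 4.18-fold (log2 2.06, standard error 0.13, edgeR quasi-likelihood test, adjusted p = 0.000296). HXK2, the hexokinase of growth on glucose, rose 4.10-fold (log2 2.04, adjusted p = 0.000951) and MIG3, a related repressor, 3.05-fold (log2 1.61, adjusted p = 0.000365). Without thiolutin replicate 1 or without thiolutin replicate 2, fewer of these genes were called in either direction, and fewer of all genes were called too.

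Of 16 genes analysed that glucose represses, 7 were called higher and 3 lower, with a median log2 fold change of 0.52, where 31.2% of all genes were called higher and 32.4% lower. SIP4, an activator of gluconeogenic genes, rose 17.3-fold (log2 4.12, adjusted p = 6.72e-05 in the edgeR quasi-likelihood test), and ADY2, an acetate transporter, rose 4.27-fold (log2 2.09, adjusted p = 0.000824). HXK1, the hexokinase isoenzyme repressed by glucose, fell to 0.178 of its untreated level (log2 -2.49, adjusted p = 0.00142). The list held genes of both directions. The count of lower genes was 6 with total counts as the scale and 6 without untreated replicate 2, and that of higher genes was 10 without untreated replicate 1.

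Of the 11 other members of the hexose transporter family, 10 passed the filter, 6 were called higher and 3 lower, with a median log2 fold change of 0.81. HXT11 rose 2.68-fold (log2 1.42, adjusted p = 0.000799), HXT10 2.64-fold (1.40, adjusted p = 0.00578) and HXT9 2.36-fold (1.24, adjusted p = 0.00476) in the edgeR quasi-likelihood test. HXT10 had low raw counts, 48 and 43 without and 42 and 61 with thiolutin. Those of HXT9 were 69 and 71 without and 62 and 79 with thiolutin. With total counts in place of TMM the log2 fold changes were 0.83 for HXT11, 0.81 for HXT10 and 0.65 for HXT9. HXT10 was not called without thiolutin replicate 2 (adjusted p = 0.0620). HXT9 and HXT11 are close copies, so their separate values are uncertain. Without thiolutin replicate 2 the counts were 3 higher and 1 lower, and without thiolutin replicate 1 they were 4 and 0. With total counts as the scale 4 were called higher.

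Of 4 maltose and related transporters, MAL31 was called lower (log2 -0.80, edgeR quasi-likelihood test, adjusted p = 0.0460), and this call was lost without either thiolutin library (adjusted p = 0.143 and 0.122), while its log2 fold change was -0.34 without untreated replicate 1. With the size factors of DESeq2 its adjusted p was 0.0507, and with total counts as the scale 3 of the 4 genes were called lower. Of 6 genes for the ubiquitination of transporters, 2 were called higher and 3 lower, and the lower genes numbered 0 without thiolutin replicate 1 and 1 without thiolutin replicate 2. The arrestin genes ROD1 and CSR2 moved in opposite directions, with ROD1 at a log2 fold change of 1.14 (adjusted p = 0.00114) and CSR2 at -1.72 (adjusted p = 0.0217), and BMH1, a 14-3-3 protein gene, rose by 1.05 (adjusted p = 0.00137). CSR2 was not called without thiolutin replicate 1 (adjusted p = 0.0730) or 2 (adjusted p = 0.0572), and its log2 fold change was -0.88 without untreated replicate 1 and -2.23 without untreated replicate 2. Over these 6 lists 21 genes were called higher and 22 lower, shares near those of all genes tested (31.2% and 32.4%). Without thiolutin replicate 1 the lower genes numbered 6, and without thiolutin replicate 2 they numbered 8, while total counts as the scale gave 15 higher and 32 lower.

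**Figure D5:**
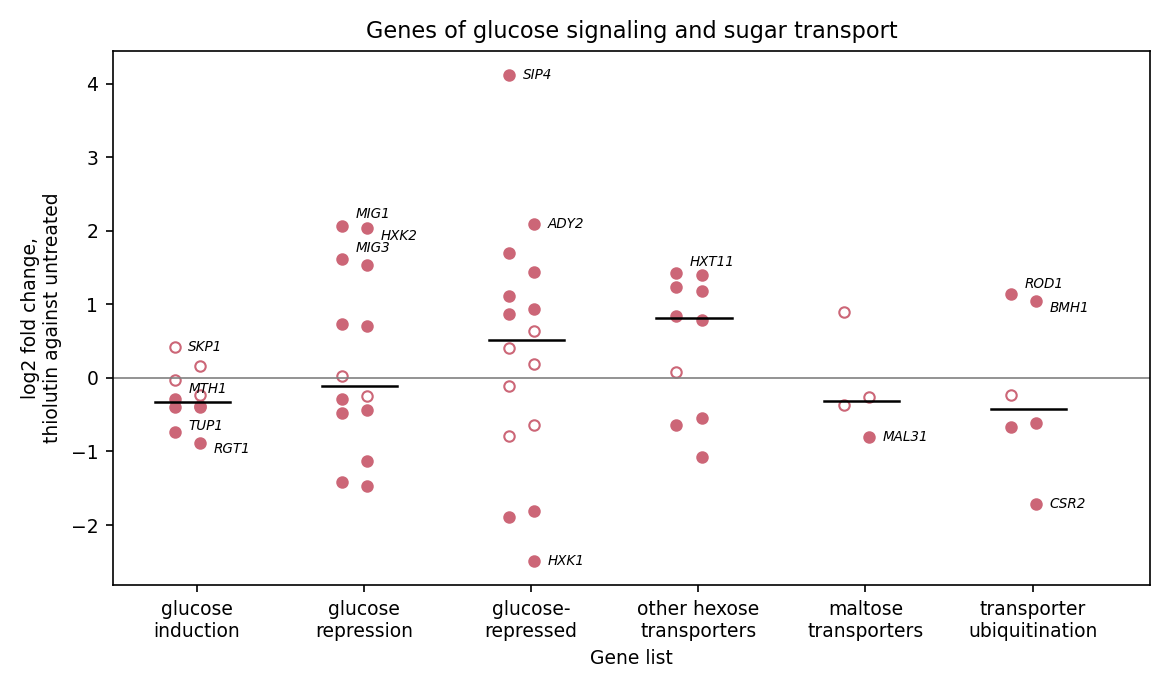
Log2 fold change of thiolutin against untreated for the genes of 6 lists, with filled circles for genes at an adjusted p under 0.05, open circles for the others and a bar at the median of each list. The medians lie between -0.43 for transporter ubiquitination and 0.81 for the other hexose transporters, and SIP4 (4.12) and HXK1 (-2.49) lie farthest from 0.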

How the data were processed

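RNA-Seq data of 4 libraries of BY4741, 2 untreated and 2 exposed to thiolutin, were analysed from the raw counts of reads per gene that the authors deposited for genome build R64, with no normalization. The sources used here name neither the aligner nor the counting program, and they do not describe the handling of strand or of reads with several matches. The authors' normalized counts and the results of their DESeq2 comparison, named in the submitters' processing notes, were not used. After 3 blank rows without a gene were left out, 6209 genes remained, of which 6206 were paired with the annotation by locus tag.

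Low-count genes were dropped by filterByExpr, library sizes were scaled by TMM, and the groups were compared with the two-sided quasi-likelihood test of edgeR 4.0.16 (R 4.3.3) without covariates, with p adjusted by Benjamini-Hochberg over all 5937 genes tested. The biological coefficient of variation was 12.2%. The test was also run on simulated counts with equal spread in both groups and changes in a small part of the genes. That simulation does not cover the unequal spread of the untreated and thiolutin pairs or the large share of genes called here. Shares and RPKM were computed from the raw counts. Sequences were read from the R64 genome of RefSeq with Biopython 1.88, and scripts ran in Python 3.11.15 with pandas 2.3.3, numpy 2.4.6 and matplotlib 3.10.9. Each fit was repeated with each library left out, with the replicate number as a block, without the filter, with total counts or the size factors of DESeq2 for scaling, and with the Wald test of DESeq2 1.42.0, and the other alternatives were an adjusted p under 0.01, shares per kilobase or without HXT6 and HXT7, and TMM-scaled RPKM.

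Named genes are the 9 members, the genes of the glucose induction pathway, up to 3 called genes of each other list with the largest change, the neighbours of the members, and the 3 genes nearest in profile to the members with the highest and the lowest log2 fold change, among genes with a mean count of at least 100, with log2 values at a pseudocount of 2. The members and lists were chosen with earlier results of these data known.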

Additional observations from a re-analysis of the deposited data

How the results depend on the processing

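The log2 fold changes of HXT1, HXT2, HXT3, HXT7 and SNF3 kept their direction and their call in every alternative of the test that was run. With total counts as the scale, HXT5 was at -0.57, RGT2 at -0.36, YCK2 at -0.43 and SKP1 at -0.16, each against its sign with TMM, and CDC53 was at 0.0043 with the size factors of DESeq2 and with DESeq2. Of the glucose-repressed genes, 3 were lower in edgeR with TMM, 6 with total counts as the scale and 5 each in DESeq2 and with the replicate block, and of the maltose transporters 1 was lower with TMM, 3 with total counts and 0 with the size factors of DESeq2. HXT5 was at -0.18 and CDC53 at 0.10 without untreated replicate 2.

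With 1 library left out at a time, the log2 fold change ranged from -0.82 to -0.65 for HXT4, -1.66 to -0.50 for HXT6, -0.18 to 0.27 for HXT5, 0.12 to 0.33 for RGT2, -0.13 to 0.10 for CDC53 and -1.91 to -0.92 for the sum of HXT6 and HXT7. The members called higher numbered 3 to 5 and those called lower 2 to 5, and the list genes called lower numbered 6 to 28. Over all genes tested, 1163 to 2437 were called higher and 893 to 2572 lower, against 1850 and 1924 with all libraries. In such a fit the single library of a group is taken to vary like the pair of the other group, whose spread was smaller in the thiolutin pair.

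The groups share the replicate numbers 1 and 2, but the differences between the replicates had a correlation of 0.0230 across genes between the groups, so the numbers were not taken to pair the libraries. With the replicate number as a block 1896 genes were higher and 1961 lower, and 3 members were higher and 4 lower.

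The share of HXT1 and HXT3 rose by 26.3 to 36.2 percentage points with 1 library left out, by 30.6 per kilobase and by 26.0 without HXT6 and HXT7. The precision is limited by 2 libraries per group and, for HXT6 and HXT7, by reads that cannot be told apart over most of the gene. Groups of 2 were not searched for outlying libraries.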
